A study of Homo sapiens with 8 samples.

Results

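The microRNA repertoire described here is that of HEK293 cells, an established line derived from human embryonic kidney, that received no antisense oligonucleotide (ASO). It rests on the 4 small RNA libraries labelled as without ASO. An entry was kept as a member when its name was that of a known human microRNA and its deposited count was above 0 in each of the 4 libraries, so the members were chosen on the measured counts themselves. This gave 513 members of 903 known microRNA entries and 2867 entries in all, the other 1964 being predicted microRNAs. Since the counts chose the members, their levels, shares and spreads are given as a description, with no test. The study used ASOs meant to lock the fold of a microRNA precursor, and its other 4 libraries, from cells given 100 nM ASO, were not used here. Cells were harvested at 48 h. The labels do not say whether the cells without ASO had been taken through a mock transfection or whether the 4 libraries came from separate cultures, so the spread between them may be technical.

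A microRNA is a short RNA cut from a hairpin precursor and loaded into an Argonaute protein, which it guides to messenger RNAs. Bases 2 to 8 of the mature strand, the seed, do most of the target recognition, so microRNAs that share a seed form a family with largely shared targets. Many are made by nearly every cell type, while others mark a tissue, such as miR-122 in the liver or miR-1 in muscle.

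The libraries held 10496804, 9611877, 8168828 and 11228954 counts in the order of their labelled numbers, and members took 98.7% to 99.2% of them. Levels are given as CPM, the count divided by the library's total and multiplied by 1000000. A count of 3 is worth 0.267 to 0.367 CPM, depending on the library. Ligation of adapters and PCR favour some small RNAs over others, so the order of different microRNAs is less certain than the comparison of a single microRNA between libraries.

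The mature sequences of the families that held most of the counts are shown first, since the families are defined by them. They are written 5′ to 3′ from RefSeq (GRCh38.p14), with the seed in capitals. RefSeq entries were found for 464 of the 513 members, 12 of them after the copy number of the hairpin had been dropped from the name. The let-7 family, regulators of developmental timing and of growth genes, shares the seed GAGGUAG.
let-7a-5p: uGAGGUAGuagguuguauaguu
let-7f-5p: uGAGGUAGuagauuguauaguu
let-7g-5p: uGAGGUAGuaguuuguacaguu
let-7i-5p: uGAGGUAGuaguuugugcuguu
let-7e-5p: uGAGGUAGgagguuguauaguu
Counted from the 5′ end, let-7f-5p differs from let-7a-5p by G12A alone and let-7e-5p by U9G alone. The leading products of the miR-92a family, miR-92a-3p and miR-25-3p, come from the miR-17-92 cluster and its relatives.
miR-92a-3p: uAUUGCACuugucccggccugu
miR-25-3p: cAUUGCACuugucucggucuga
miR-7, known from neurons and endocrine cells, and miR-21, known for its high level in proliferating and tumour cells, stand alone in their seeds among the members with a sequence.
miR-7-5p: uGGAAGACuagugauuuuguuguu
miR-21-5p: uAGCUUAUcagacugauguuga
Among the products with a sequence, the next families are those of miR-148, miR-26, miR-30 and miR-10a, followed by miR-423-3p and miR-128.
miR-148a-3p: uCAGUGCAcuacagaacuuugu
miR-148b-3p: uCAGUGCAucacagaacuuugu
miR-26a-5p: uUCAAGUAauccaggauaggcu
miR-26b-5p: uUCAAGUAauucaggauaggu
miR-30a-5p: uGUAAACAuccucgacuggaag
miR-30c-5p: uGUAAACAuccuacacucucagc
miR-10a-5p: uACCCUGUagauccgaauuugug
miR-423-3p: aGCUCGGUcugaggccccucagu
miR-128-3p: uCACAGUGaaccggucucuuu

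Several entries of the table name the same mature microRNA from different hairpins. In all 4 libraries miR-92a-2-3p has exactly the counts of miR-92a-3p, and miR-24-2-3p those of miR-24-3p, while miR-92a-1-3p lies close to the former. For the ranking and the families, entries whose names differ only by the copy number of the hairpin were counted once, by the entry with the highest count. This removed 8 entries and left 505 mature products. Names that differ otherwise stayed apart, also where the sequence is the same, as for miR-199a-3p and miR-199b-3p.

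The repertoire was dominated by a small number of microRNAs. As listed, the 10 most abundant members held 51.9% ± 1.68 (SD, n = 4) of member counts, the 50 most abundant 91.0% ± 0.677 and the 100 most abundant 97.8% ± 0.139. Between 9 and 10 entries made up 50% of the counts of a library, and 44 to 49 made up 90%. With copies counted once the 10 most abundant products held 54.3% ± 2.93. The 22 members at 10000 CPM or more took 74.8% of all member counts, and the 58 between 1000 and 10000 CPM took 21.5%. At the other end, 183 members lay between 1 and 10 CPM and 27 lay under 1 CPM, and these 2 groups took 0.0756% and 0.00191% of the counts.

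miR-7-5p and miR-21-5p stood at the top. miR-7-5p was at 97728, 80074, 66757 and 62611 CPM in libraries 1 to 4 (mean 76793 ± 15821, SD, n = 4). miR-21-5p was at 82985, 78323, 73778 and 69543 CPM (76157 ± 5795). Their ranges overlapped, and their order was not the same in every library: miR-7-5p ranked first in libraries 1 and 2, and miR-21-5p in libraries 3 and 4. Without library 1 miR-21-5p was the higher on average, at 73881 against 69814 CPM. The hairpin of miR-21 lies at chr17:59841266-59841337 on the plus strand (GRCh38), over an exon of a transcript of VMP1, a gene of autophagy.

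miR-92a-3p followed at 48612, 57424, 61008 and 62323 CPM (57342 ± 6177), all below the lowest value of miR-21-5p. let-7a-5p was at 47382 ± 2198 CPM and let-7f-5p at 36261 ± 1295 CPM. miR-148a-3p, a microRNA known to repress DNA methyltransferase genes, was the least even of the leading products, at 61147, 42100, 33746 and 30340 CPM (41833 ± 13792). Among the entries as listed it had rank 3 in library 1, rank 7 in library 2 and rank 9 in libraries 3 and 4. Its hairpin lies at chr7:25949919-25949986 on the minus strand, in no annotated host gene.

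miR-26a-5p lay at 37719 CPM in library 1 and between 40660 and 41187 CPM in the others. miR-10a-5p (30659 ± 4569 CPM) and miR-10b-5p (26404 ± 5489 CPM), which sit in the HOX gene clusters, were both highest in library 1, at 37357 and 34492 CPM. miR-25-3p, from an intron of the replication gene MCM7, was at 27400 ± 1037 CPM. let-7g-5p, miR-423-3p, miR-128-3p, let-7i-5p and miR-30a-5p filled the range from 23173 down to 18484 CPM. Below a gap, miR-27b-3p was at 15492 ± 2321, miR-30d-5p at 13730 ± 759, miR-103a-3p at 11646 ± 3151, miR-191-5p at 9907 ± 2570 and miR-221-3p at 9660 ± 2206 CPM. Of the 19 pairs of neighbours among these 20 products, 16 had ranges that overlapped. Within libraries, the order of the pair was the same in all 4 for 6 pairs and changed for 13. The former included 3 pairs with overlapping ranges, such as miR-92a-3p over let-7a-5p and miR-128-3p over let-7i-5p. The ranges did not overlap below miR-21-5p, below miR-26a-5p and below miR-30a-5p.

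**Figure D1:**
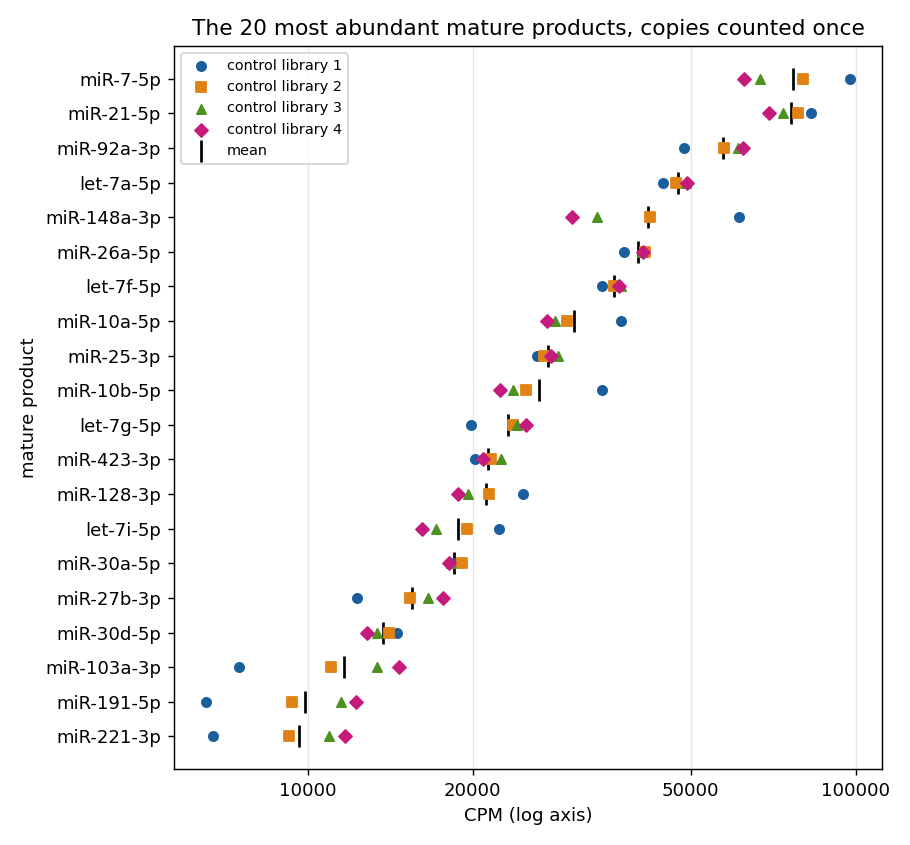
CPM (log axis) of the 20 most abundant mature products in each of the 4 control libraries, with copies counted once; symbols are libraries and the black tick is their mean. miR-7-5p spans 62611 to 97728 CPM and miR-148a-3p 30340 to 61147 CPM, while miR-30a-5p keeps within 18117 to 19120 CPM.

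Grouped by seed, the 456 products with a sequence fell into 394 families, of which 352 had a single product. The 10 largest families together held 68.3% ± 2.01 (SD, n = 4) of product counts. The let-7 family was the largest, at 15.8%, 16.8%, 17.1% and 17.3% in libraries 1 to 4 (16.8% ± 0.690), with 9 products. Within it, let-7a-5p gave 33.3% ± 0.733 of the counts. Its other members were let-7f-5p, let-7g-5p, let-7i-5p and let-7e-5p (9209 ± 116 CPM), and then let-7c-5p, let-7b-5p, miR-98-5p and let-7d-5p between 2537 and 1590 CPM. let-7a-5p and let-7f-5p differ by a single base and let-7a-5p and let-7c-5p by A19G alone, so reads with an error or an edited base could move between them, and their split is less certain than the family's sum. The table also gives let-7c-5p a length of 18, against 22 in RefSeq. Such differences were common: of the 456 products, the listed length equalled that of RefSeq in 248, was longer in 136 and shorter in 72.

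The miR-92a family held 10.3% ± 1.01 of product counts in 4 products. miR-92a-3p made up 65.7% ± 1.77 of it and miR-25-3p most of the rest. miR-92b-3p was at 1668 ± 201 and miR-363-3p at 728 ± 21.3 CPM. How the copies are treated decides which family leads: with every entry as listed, the miR-92a family took 19.6% and let-7 took 14.4%. miR-7 held 9.03% ± 1.71 and miR-21 held 8.97% ± 0.543.

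The miR-148 and miR-152 family held 5.59% ± 1.5, with 87.1% ± 3.56 of it from miR-148a-3p. The miR-26 family held 5.26% ± 0.363, with 89.9% ± 1.62 from miR-26a-5p. The miR-30 family held 3.80% ± 0.330 over miR-30a-5p, miR-30c-5p (9031 ± 2311 CPM) and miR-30e-5p (4708 ± 215 CPM). miR-30d-5p had no sequence in the RefSeq table and is not in this sum. miR-10a held 3.61% ± 0.479, and miR-10b-5p, also without a sequence there, is not counted with it. miR-423-3p held 2.51% ± 0.140. The miR-128 seed, which miR-216a-3p shares, held 2.49% ± 0.271. The 49 products without a sequence held 5.83% ± 0.488 of the counts, so shares of families with such members are lower bounds. The order of the families, their summed share and the number with a single product could also change with them. miR-10b-5p alone was at a mean of 26404 CPM, against 30659 CPM for miR-10a-5p.

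**Figure D2:**
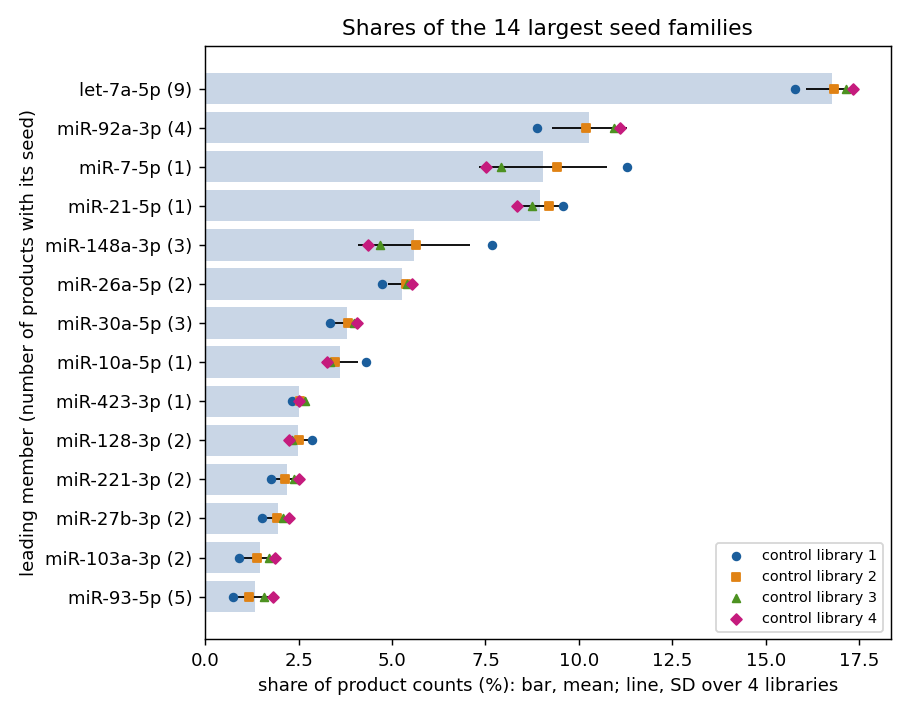
Share of product counts (%) held by the 14 largest seed families, with copies counted once; bars are means, lines the SD over 4 libraries and symbols the libraries, and the number of products with the seed is in brackets. let-7 leads with 16.8%, and the miR-7 and miR-148 families are highest in library 1, where the let-7 and miR-92a families are lowest.

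The families with the smallest shares shown held between 1.32% and 2.2%. miR-221-3p and miR-222-3p, a pair that represses the cell cycle inhibitor p27, were at 9660 ± 2206 and 8987 ± 309 CPM. The family of miR-17, miR-20a, miR-93, miR-106a and miR-20b, which promotes proliferation, held 1.32% ± 0.466. Its most abundant member was miR-93-5p at 5692 ± 1882 CPM.

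In several clusters, microRNAs processed from a shared primary transcript were listed at very unequal levels. Elsewhere partners lay close, as did miR-221-3p and miR-222-3p on average. In the miR-17-92 cluster, miR-17-5p was at 1357, 2193, 2798 and 3163 CPM and miR-20a-5p at 1586, 2640, 3531 and 4010 CPM. miR-92a-3p, which also has a copy in the miR-106a-363 cluster on the X chromosome, exceeded miR-17-5p by 35.8, 26.2, 21.8 and 19.7 times in libraries 1 to 4. In the miR-106b-25 cluster, miR-25-3p exceeded miR-93-5p by 5.26 ± 1.85 times (SD, n = 4), and the third hairpin was listed by its other strand, miR-106b-3p, at 3763 ± 191 CPM.

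In the cluster of miR-183, miR-96 and miR-182, known from sensory cells, miR-182-5p was at 8099 ± 125 CPM and miR-183-5p at 7387 ± 490 CPM, against 365 ± 16.3 CPM for miR-96-5p. The ratio of miR-182-5p to miR-96-5p was nearly constant, at 22.2 ± 0.691 (SD, n = 4). miR-27b-3p exceeded its neighbour miR-23b-3p by 11.1 ± 0.494 times. miR-191-5p exceeded its neighbour miR-425-5p by 7.27, 10.4, 13.1 and 13.9 times, and that ratio moved with miR-191-5p, since miR-425-5p stayed between 877 and 898 CPM. miR-532-5p was at 3403 ± 588 CPM, while miR-188-5p of the same cluster was at 6.11 ± 0.968 CPM.

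Mature strands that begin with U were common among the abundant products. They were 53.1% of the 456 products with a sequence and took 80.1% ± 1.83 (SD, n = 4) of their counts. U begins 36.8% of the 2370 human mature sequences in the RefSeq table. Strands that begin with G were 6.36% of products and took 0.289% ± 0.00260 of the counts.

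The table seldom gave both strands of a hairpin. Of 807 RefSeq hairpins with 2 mature products, 16 had both in the table, 249 had none and the others had a single one. Among the members, 7 hairpin names carried both arms. For miR-16 the 5p strand held 39.4%, 46.9%, 51.8% and 54.8% of the counts of both arms in libraries 1 to 4. The name miR-16 covers the hairpins miR-16-1 and miR-16-2, so this share is not that of a single hairpin. For miR-576 it held 30.0% ± 3.27 and for miR-500a 9.66% ± 0.921. The arms of miR-135a had identical counts, and those of miR-199a differed by 1 count in 1 library. An entry may therefore hold reads of the other strand of its hairpin. The families, the printed sequences and the first bases were all taken from the strand in the name, so they rest on those names being right.

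Next, microRNAs known to be restricted to a tissue were followed through 15 lists that name 169 hairpins. Of these hairpins, 121 were listed in the table and 86 were above 0 in all 4 libraries. Counted by entries and not by hairpins, 513 of all 903 known microRNA entries were above 0 in all 4, so presence alone was common. An entry listed at 0 is described as such, since a 0 in the table can stand beside a high count in another library.

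The 5 microRNAs embedded in the clusters of HOX genes, which set position along the body axis, were all above 0 and at least 2086 CPM on average. Beside miR-10a-5p and miR-10b-5p, miR-196b-5p was at 6688 ± 362 CPM, miR-615-3p at 3718 ± 464 CPM and miR-196a-5p at 2086 ± 346 CPM. The hairpin of miR-196b lies at chr7:27169480-27169563 in an exon of a transcript of HOXA9, and that of miR-615 at chr12:54033950-54034045 in an intron of HOXC4 and HOXC5.

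Neural microRNAs were present at mixed levels. miR-128-3p was at 24749, 21447, 19611 and 18779 CPM. miR-218-5p, hosted by introns of the axon guidance genes SLIT2 and SLIT3, was at 4928, 4910, 4912 and 4906 CPM. miR-9-5p, a microRNA of neural progenitors, was at 3544 ± 69.2 CPM, miR-129-5p at 554 ± 150 and miR-132-3p at 327 ± 2.63 CPM. Of the 14 neural entries, 8 exceeded 100 CPM, with the copies miR-128-1-3p and miR-128-2-3p counted apart. In contrast, the entry of miR-124, a microRNA abundant in mature neurons, was at 2.53 ± 0.955 CPM and was named for its 5p strand. miR-153-3p was listed at 0 in all 4 libraries. miR-137-3p had counts of 0, 0, 15 and 13.

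In the list of the pancreas and neuroendocrine cells, miR-7-5p was 1 of the 2 leading microRNAs of the whole repertoire, while miR-375-3p, the marker of islet cells, was at 49.2 ± 3.41 CPM. miR-216b-5p and miR-217-5p were at 5.63 ± 0.869 and 3.70 ± 0.826 CPM. The sensory list was led by miR-182-5p and miR-183-5p, and its eye microRNA miR-184 was at 32.6 ± 8.0 CPM.

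The kidney and gut list was fully present. miR-192-5p was at 1662, 1460, 1248 and 1180 CPM (1387 ± 218), miR-194-5p at 77.8, 108, 145 and 163 CPM (124 ± 38.1), miR-215-5p at 122 ± 11.0 CPM and miR-204-5p, a microRNA of kidney tubules and of the retinal pigment epithelium, at 38.5 ± 2.34 CPM. miR-192-5p was highest in library 1 and miR-194-5p lowest there, although hairpins of both lie side by side, so their ratio went from 7.23 in library 4 to 21.4 in library 1.

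Epithelial microRNAs of the miR-200 family, which repress the ZEB genes, were low to moderate. miR-200b-3p was at 368 ± 21.8 CPM, miR-200c-3p at 89.5 ± 16.7, miR-200a-3p at 55.6 ± 8.14 and miR-429 at 39.9 ± 3.91 CPM. miR-141-3p, which is made with miR-200c, was listed at 0 in all 4 libraries, as was miR-205-5p. The endothelial miR-126-3p, from an intron of EGFL7, was at 864 ± 33.7 CPM. Among mesenchymal microRNAs miR-143-3p was at 98.9 ± 10.3 and miR-145-5p at 4.79 ± 1.23 CPM.

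Markers of blood cells were near 0, with 1 exception. miR-486-5p was at 82.2 ± 2.18 CPM, whereas miR-142-3p had counts of 4, 0, 0 and 0, miR-150-5p had 7, 0, 0 and 0, and miR-144-5p was listed at 0 throughout. miR-223 and miR-451a have no entry in the table. The liver's miR-122-5p was at 14.3, 11.0, 10.3 and 12.1 CPM, from 84 to 150 counts. In the muscle list miR-499a-5p was at 24.5 ± 3.68 CPM and miR-1-3p at 5.57 ± 0.862 CPM, miR-133a-3p had counts of 0, 4, 4 and 7, and miR-133b was at 0.

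Pluripotency microRNAs were low, and 4 of the 8 entries listed for them were above 0 in all 4 libraries. miR-302a-5p was at 44.7 ± 6.81 CPM, miR-302b-3p at 37.2 ± 2.09, miR-302d-3p at 6.05 ± 1.2 and miR-372-3p at 2.92 ± 0.639 CPM. miR-302c-5p had counts of 0, 10, 0 and 28, and miR-371a-5p had 0, 0, 11 and 0. miR-371b-3p and miR-373-3p were listed at 0 in all 4 libraries. Of the 9 hairpins in the list, 8 had an entry. miR-302b-3p and miR-372-3p share the seed AAGUGCU.
miR-302b-3p: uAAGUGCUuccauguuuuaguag
miR-372-3p: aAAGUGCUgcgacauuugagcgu

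The 3 large clusters of restricted expression differed from each other, also in how many of their hairpins had an entry. Entries were listed for 39 of 49 hairpins at 14q32, 8 of 36 at 19q13 and 12 of 17 at Xq27. Over all known microRNA entries, 513 of 903 were above 0 in all libraries. The imprinted cluster at 14q32 had 33 of 40 entries above 0 in all libraries, with a sum of 497 ± 20.6 CPM, and its leading member miR-381-3p was at 73.4 ± 12.6 CPM. The placental cluster at 19q13 had 2 of 9 entries above 0 in all libraries, miR-516b-5p at 1.47 ± 0.659 and miR-1323 at 0.806 ± 0.186 CPM, and neither reached 10 counts in every library. The testis cluster at Xq27 had 5 of 14 entries above 0 in all libraries, led by miR-892a at 10.6 ± 2.48 CPM. Members of the placental cluster resemble each other closely, so the counting could have lost them, and their low values are less certain than those of the 14q32 cluster.

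**Figure D3:**
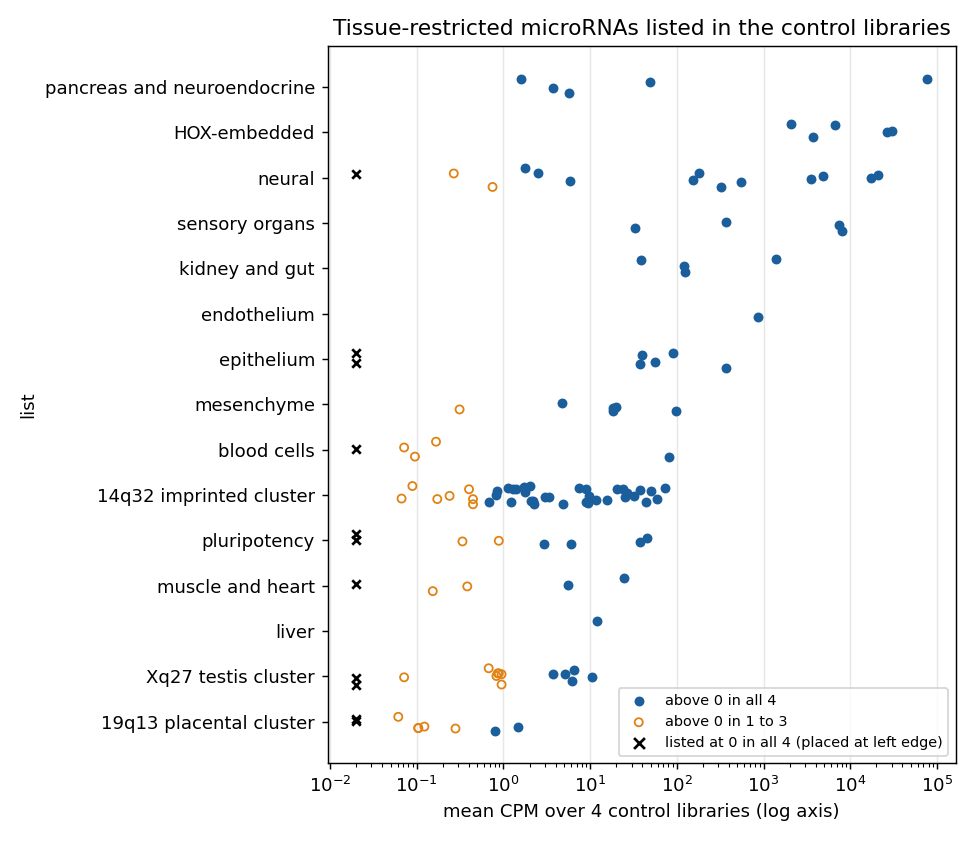
Mean CPM over the 4 control libraries (log axis) of the listed microRNAs of each tissue list; filled points are above 0 in all 4 libraries, open points in 1 to 3, and crosses at the left edge are listed at 0 in all 4. The lists span from the 19q13 placental cluster, at most 1.47 CPM, to miR-7-5p in the neuroendocrine list at 76793 CPM.

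The 4 libraries were then compared with each other over the 296 products with a mean of at least 100 counts. The median SD of log2 CPM was 0.184 (interquartile range 0.110 to 0.324), against 0.0430 from counting error alone, and in 278 products the SD was above the one expected from counting, a level that counting error alone also passes in part of the cases. Counting error covers the draw of reads and not the amplification before it. The highest library exceeded the lowest by 2 times or more in 33 products and by less than 1.1 times in 32. edgeR's common biological coefficient of variation was 21.1% over the 303 entries of that depth.

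**Figure D4:**
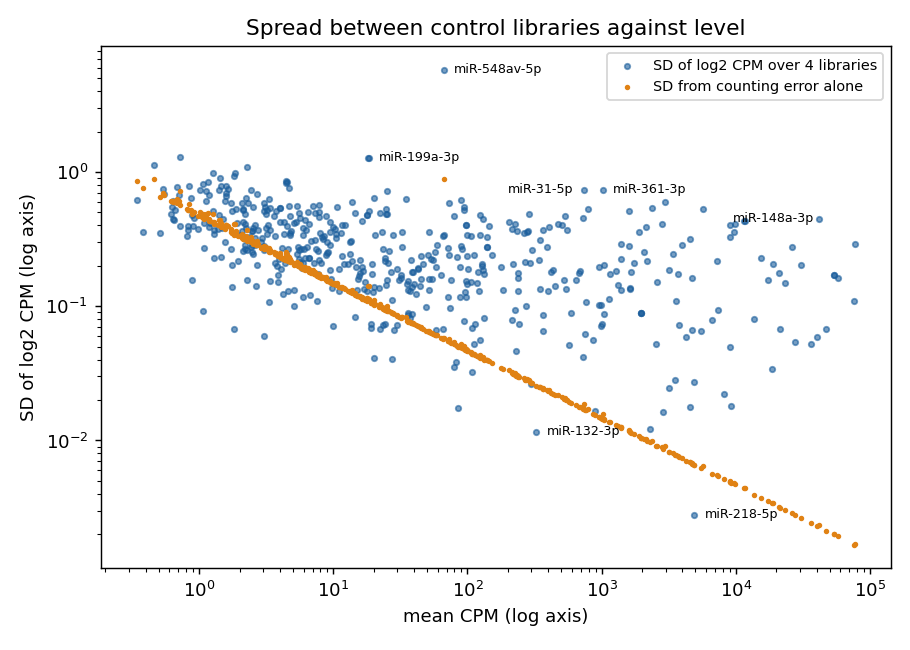
SD of log2 CPM over the 4 control libraries (log axis) against mean CPM (log axis) for the 513 members, with the SD that counting error alone would give in orange. Abundant members lie far above the counting error, and miR-218-5p and miR-132-3p lie under it.

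The spread had a common form, in which library 1 lay at one end and library 4 at the other. Library 1 held the lowest or the highest value in 255 of the 296 products (86.1%) and library 4 in 206 (69.6%), against 41 for library 2. In 112 products library 1 was lowest and library 4 highest, and in 69 the reverse. The median absolute log2 difference was 0.377 between libraries 1 and 4 and 0.0888 between libraries 3 and 4. Without library 1 the median SD fell from 0.184 to 0.112. The cause of the difference was not tested, and the labels give no batch.

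Relative to the mean of the other libraries, library 1 had a median shift of -0.12 on the log2 scale over the products, 188 of 296 were lower, and the size of the shift differed within families. Of 22 families with at least 2 products of this depth, 14 had all products lower in library 1, 3 had all higher and 5 were mixed, which became 11, 4 and 7 with TMM scaling. Of the mixed families, let-7 went from let-7d-5p, with a shift of -0.51, to let-7i-5p, with a shift of 0.34 (log2). The shift was 0.80 for miR-148a-3p and -0.14 for miR-152-3p (log2). miR-30c-5p was at 6030, 8438, 10504 and 11151 CPM while miR-30a-5p was at 18409, 19120, 18291 and 18117 CPM. miR-221-3p was at 6732, 9245, 10964 and 11699 CPM while its neighbour in the genome and in the family, miR-222-3p, was at 8589, 8896, 9202 and 9259 CPM. In the miR-17 family all 5 products were lower in library 1, with shifts of -1.08 to -0.89 (log2).
miR-17-5p: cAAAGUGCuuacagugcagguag
miR-20a-5p: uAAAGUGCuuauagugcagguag
miR-93-5p: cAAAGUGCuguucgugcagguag
miR-221-3p: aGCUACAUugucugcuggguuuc
miR-222-3p: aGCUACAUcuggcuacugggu
These are shown because miR-17-5p and miR-20a-5p, which differ by C1U and C12U, shifted by like amounts while miR-221-3p and miR-222-3p had unequal shifts of -0.65 and -0.09 (log2). Over the 266 products of this depth with a sequence, the shift of library 1 had a Pearson correlation across products of 0.13 with GC content (Spearman 0.08), of 0.08 with RefSeq length (Spearman -0.15) and of -0.20 with the share of A (Spearman -0.20). The values for length differ in sign, and products are not independent replicates.

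**Figure D5:**
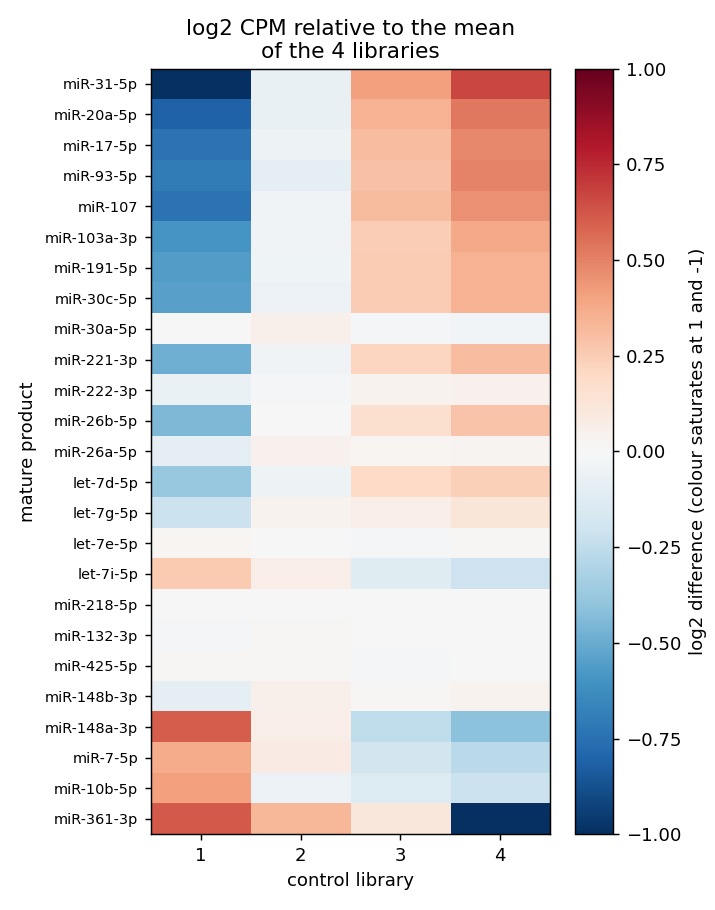
Difference of log2 CPM from the mean of the 4 control libraries for 25 mature products, 1 column per library; blue is lower, red is higher, and colours saturate at 1 and -1. miR-30c-5p, miR-221-3p and the miR-17 family are lowest in library 1, miR-148a-3p, miR-7-5p and miR-10b-5p are highest there, and miR-218-5p is flat.

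The products with the widest spread were led by miR-548av-5p, with counts of 1, 1253, 1103 and 2. No other member differed by 10 times or more between libraries, but the rule leaves out every entry with a 0. Of the known entries, 16 were at 0 in some library and at 100 counts or more in another, so such a pattern was not single. Among the members, miR-199a-3p and miR-199a-5p came after miR-548av-5p, and miR-199b-3p was also among the 10 widest. miR-199a-3p and miR-199b-3p have the same sequence, yet their counts were 44, 178, 144 and 369 against 116, 178, 143 and 369. miR-361-3p was at 1436, 1181, 1010 and 448 CPM. miR-31-5p, the microRNA whose name the library labels carry, was at 336, 639, 894 and 1066 CPM, a 3.17-fold range among libraries of the same group. Next came miR-494-3p, miR-590-3p, miR-577 and miR-10525-3p, with ranges of 2.61 to 3.18 times.

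The evenest products were miR-218-5p (SD of log2 CPM 0.00280), miR-132-3p (0.0116), miR-1180-3p (0.0123), miR-1260a (0.0164) and miR-425-5p (0.0165). miR-218-5p and miR-132-3p varied less than counting error would give on average. As the extremes of 296 products they were picked for being even.
miR-218-5p: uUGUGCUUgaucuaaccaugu
miR-31-5p: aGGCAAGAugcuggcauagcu
miR-548av-5p: aAAAGUACuugcggauuu

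The rule that a count be above 0 in all 4 libraries left out entries that were far from rare. Of the 903 known entries, 82 were above 0 in 3 libraries, 80 in 2, 134 in 1 and 94 in none. Just inside the rule, miR-4525 had counts of 4, 2, 2 and 6, miR-3617-5p 5, 4, 3 and 3, and miR-6888-3p 7, 4, 1 and 7. Just outside it, miR-941 had 43250, 28953, 0 and 25642, miR-18a-5p of the miR-17-92 cluster 0, 1043, 1035 and 1434, and miR-1292-5p 655, 550, 500 and 0. In all, 16 known entries were at 0 in some library and at 100 counts or more in another. A 0 in this table therefore does not by itself show that a microRNA was missing from the cells.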

How the data were processed

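Per the labels' protocols, a Qiagen miRNeasy kit gave total RNA of HEK293 cells, from which an NEB kit made small RNA libraries. The submitters' processing notes name bcl2fastq 2.20, Trimmomatic 0.30, the GRCh38 build and edgeR 3.4.6. Which aligner, counter and annotation of microRNAs were used is not given in the sources used here. The authors deposited whole-number counts per entry and library, not normalized, and a length for each entry. Only the count columns of the 4 libraries without ASO and the length were used here; their other columns were not used here.

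CPM was the count over the total of all 2867 entries, times 1000000, so entries that repeat a product enter the total. Names were matched to RefSeq mature sequences (GRCh38.p14), and hairpins to the GENCODE annotation of the same build. Products were grouped by bases 2 to 8. SDs are over 4 libraries, and the counting SD is that of Poisson counts. The TMM factors (0.972 to 1.02) and the coefficient of variation came from edgeR 4.0.16 in R 4.3.3. Tables were made with pandas 2.3.3. A check on simulated counts covered the SD after the counting variance was taken out, averaged over simulated sets. It did not cover the SD of log2 CPM as given here. No test between groups was made.

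The members and lists were chosen with earlier results of these data known. Named were the 20 highest members, the 10 largest families with their 2 leading members, the leading, other abundant (over 100 CPM) and absent members of each tissue list, the 10 widest and 5 evenest products of at least 100 counts, hairpins whose minor arm held at least 25%, and entries next to the rule. A clause on arms marked by a star was not applied, since no file gives the mark. Cluster partners, family members, further tissue markers and the sequences shown with them were added after their values were seen. Alternatives were leaving out each library, a minimum of 10 counts, presence in 3 of 4 libraries, counting copies once or as listed, the total of known microRNAs, and TMM scaling.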

Additional observations from a re-analysis of the deposited data

Results flagged for a closer look

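In 70 sets of 4 values checked, 60 of CPM and 10 of seed family shares, 1 had a library that stood apart, and chance flags about 1 in 20. The sets overlap, since the families hold microRNAs that were also checked by CPM. miR-26a-5p was at 37719 CPM in library 1 and between 40660 and 41187 CPM in the other 3, a gap of 0.848 of the whole range. Outside the known microRNAs, 114 predicted entries were above 0 in all 4 control libraries, and the most abundant had a mean of 823 CPM ± 33.8 (SD, n = 4).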

How the results depend on the processing

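The order of the leaders changed with the setting: the miR-92a family passed let-7 with entries as listed, and miR-21-5p passed miR-7-5p without library 1 (73881 against 69814 CPM) and by the median over libraries (76051 against 73416 CPM). The member count was 530 to 536 with a library left out, 455 at a minimum of 10 counts, 595 with presence in 3 of 4 libraries and 505 with copies once. The share of the 10 most abundant entries was 54.3% with copies once. With entries as listed, family shares were 14.4% for let-7a-5p, 19.6% for miR-92a-3p, 7.70% for miR-21-5p, 4.51% for miR-26a-5p, 3.26% for miR-30a-5p, 3.10% for miR-10a-5p, 2.15% for miR-423-3p and 3.88% for miR-128-3p, by the construction of that alternative. At a minimum of 10 counts in all 4 libraries, 0 entries of the 19q13 list remained. The median SD of log2 CPM was 0.112 to 0.217 with a library left out, and 0.112 without library 1. Over the total of known microRNAs, miR-218-5p was at 4952 CPM. No paired analysis was possible because 1 group was described and no test was made. Depth limits entries under about 1 CPM, where counting error exceeds the median spread.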
